A study of Arabidopsis thaliana and Solanum lycopersicum with 40 samples.

Results

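Roots of tomato seedlings (Solanum lycopersicum, cultivar M82) were compared between plants kept in shade for 6 h and plants kept unshaded for the same 6 h. The comparison rested on 4 RNA sequencing libraries, 2 shaded and 2 unshaded, of the 40 samples in the series and of its 16 tomato samples. Seedlings had first grown for 7 days in white light on agar plates, and all groups, the unshaded controls included, shared that growth. Whole roots were frozen at harvest. The other tomato libraries came from 3, 12 and 24 h, each with 2 shaded and 2 unshaded samples of its own, so no control library served more than 1 time point. Genes were those whose FPKM averaged at least 1 over the 16 tomato libraries, which left 20413 of the 34075 genes of the table. FPKM is the number of sequenced fragments of a transcript, scaled by its length and by the mapped fragments of the library. Genes are named by the description that the table pairs with each identifier.

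Plants read shade mainly as a drop of red relative to far-red light, which shifts phytochrome photoreceptors to their inactive form. In the shoots of Arabidopsis, this releases growth-promoting transcription factors, and genes of the homeobox-leucine zipper (HD-Zip) class are among their early targets. Light also promotes the synthesis of flavonoids, chlorophyll-binding proteins and enzymes of nitrate assimilation, and it sets the circadian clock. Roots can receive the signal through the shoot, through light in the medium, or both, and the spectrum of the shade used here was not given in the sources used here.

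The 4 libraries were of similar relative depth. This was 0.760 and 0.794 in the shaded and 0.822 and 0.798 in the unshaded libraries, relative to the geometric mean of the tomato libraries, within a tomato range of 0.669 to 1.48. Absolute read numbers are unknown because the files hold no counts. Across genes, which are not independent replicates, Pearson's r between replicates was 0.981 in shaded roots and 0.957 in unshaded roots, and 0.957 to 0.963 between shaded and unshaded libraries. The unshaded pair was thus no more alike than libraries of different light. In unshaded roots 242 genes differed by at least 4-fold between the replicates, against 108 in shaded roots. Extensins, glycoproteins of the cell wall, differed within the unshaded pair: 29 of 35 measured extensin genes, a group chosen after its values were seen, were higher in unshaded library 1 than in unshaded library 2. Their median difference was 1.31 on the log2 scale, against -0.01 over all genes tested. Of 20 genes on a list of root markers such as SCARECROW and Casparian strip membrane proteins, 17 were measured. Their FPKM summed to 580.8 in either shaded library and to 498 and 368 in the unshaded ones. Without the Casparian strip gene Solyc04g005620.3, the sums were 403 and 411 in shade against 412 and 311, and the groups overlapped.

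After 6 h of shade, 334 genes (1.64% of those tested) differed between shaded and unshaded roots. Of these, 233 were higher in shade (1.14%) and 101 were lower (0.495%). Differences are given as shaded minus unshaded on the log2(FPKM + 1) scale with their standard error, on which low genes appear to change less than they do in FPKM. A gene was called where limma gave an adjusted p-value (Benjamini-Hochberg) under 0.05; limma is a linear model whose spread was estimated over all 8 tomato groups. At least a 2-fold difference was seen in 172 called genes (118 higher and 54 lower) and at least a 4-fold difference in 28 (12 higher and 16 lower). The shaded and unshaded libraries of all 334 called genes did not overlap, as was the case for 45.4% of all genes tested. Such a separation, where given below for a called gene, is a description and adds no support to the call. The median difference of all genes tested was -0.003.

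The count of calls rested on single libraries. It was 7 without shaded library 1, 44 without shaded library 2, 270 without unshaded library 1 and 170 without unshaded library 2. Of the 334 genes, 4, 42, 132 and 101 respectively remained called, and all 334 kept their direction in each of these fits. The 4 genes that remained called whichever library was left out were a homeobox-leucine zipper-like protein (Solyc02g077590.1), chalcone synthase 2 (Solyc05g053550.3), an agglutinin-like protein (Solyc04g009050.4) and a gene with no description (Solyc10g006750.4). The direction of the 334 genes could not change in the fits without 1 library, because their shaded and unshaded libraries did not overlap. Fitted to the 4 libraries alone, limma called 0 genes, with 2609 at an unadjusted p-value under 0.05. The labels do not say that replicates came from separate cultures, so the p-values measure only the spread between these samples, which may be technical.

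**Figure D1:**
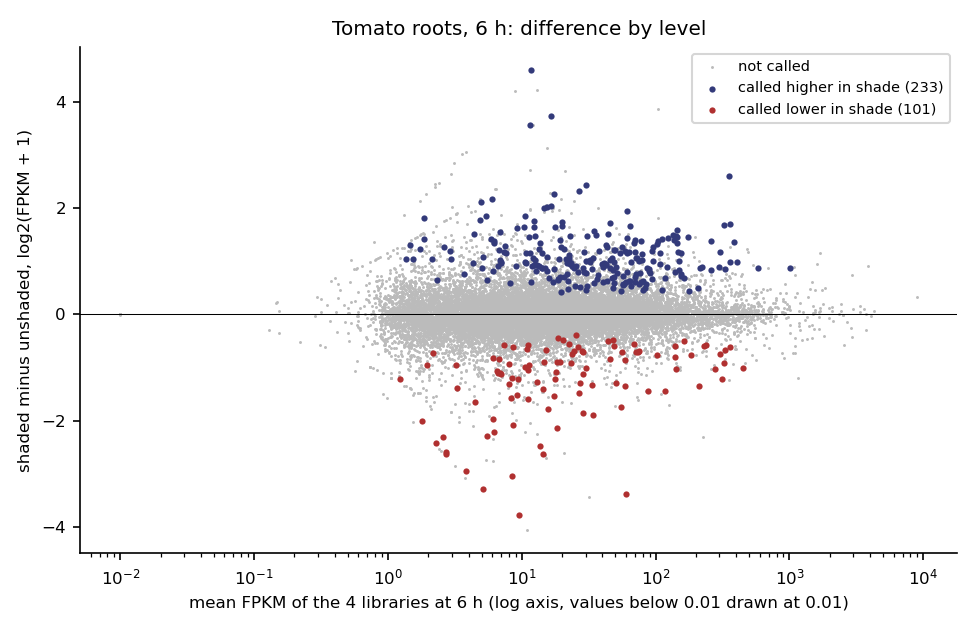
Each point is 1 of the 20413 tomato genes tested, with its mean FPKM over the 4 libraries at 6 h (log axis) against its shaded minus unshaded difference on the log2(FPKM + 1) scale. The 233 genes called higher in shade and the 101 called lower lie above and below a grey band of genes that were not called, and called falls reach -3.78.

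Large rises were found among HD-Zip transcription factors, which pair a DNA-binding homeodomain with a leucine zipper for dimerisation. Of 31 measured members, 6 were called higher and 0 lower, against 1.14% and 0.495% of all genes, and the median of the 31 was 0.37. The homeobox-leucine zipper-like gene Solyc02g077590.1 had an FPKM of 22.3 and 40.9 in shaded roots against 1.40 and 1.26 without shade. It was low in both unshaded libraries, and the groups were far apart. The difference was 3.75 ± 0.39 (SE, n = 2 per group; limma adjusted p = 0.00514). A gene named after HOX6 of rice (Solyc07g062790.1) stood at 21.2 and 22.3 in shade and at 0.183 and 2.07 without it, a rise of 3.58 ± 0.40 (limma adjusted p = 0.0056). The shaded libraries nearly coincided, while the unshaded ones differed from each other at a low level.

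A second HOX6 gene (Solyc06g053220.3) read 16.2 and 17.4 in shaded against 6.38 and 2.31 in unshaded roots, a difference of 1.85 ± 0.33. HAT2 (Solyc06g060830.3) is named after an Arabidopsis HD-Zip class II gene that is raised by shade in shoots. It read 27.0 and 34.4 in shade and 7.14 and 11.1 without it, and the difference was 1.67 ± 0.25 (limma adjusted p = 0.0137). The lowest shaded value was more than the highest unshaded one. The remaining called members were a gene described only as HD-ZIP (Solyc01g090460.3), at 0.94 ± 0.13, and HOX27 (Solyc01g073910.4), at 0.90 ± 0.17. HOX27, HAT2 and the second HOX6 gene lie outside the naming rule and were chosen after their values were seen. Not every member moved: HAT5 (Solyc02g086930.4), the most abundant of the list, was at 261 and 272 in shade against 276 and 222 without it, and its groups overlapped. HAT4 (Solyc08g078300.4), whose Arabidopsis namesake is a standard marker of shade in shoots, differed by 0.47 ± 0.20 and was not called (limma adjusted p = 0.305). Of the 6 HD-Zip calls, 1 remained without shaded library 1, 2 without shaded library 2, 6 without unshaded library 1 and 4 without unshaded library 2.

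The other large rises covered varied functions. An unannotated gene (Solyc02g079240.1) was the most abundant of them, at 626 and 595 in shaded and 104 and 94.4 in unshaded roots, a difference of 2.61 ± 0.42 (limma adjusted p = 0.018). An AP2/B3 family transcription factor (Solyc04g007000.2) read 51.0 and 52.4 in shade and 7.30 and 10.5 without it, a difference of 2.43 ± 0.35. In both genes the shaded replicates were close together and well clear of the unshaded ones. The gene with no description Solyc10g006750.4 had the smallest adjusted p-value of the comparison. The shaded libraries held 26.6 and 27.6 FPKM and the unshaded ones 5.70 and 5.99, and it rose by 2.04 ± 0.14 (limma adjusted p = 0.000366). Its replicates were tight in both groups.

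Late embryogenesis abundant proteins protect cells that lose water, as in drying seeds. The D-29 member (Solyc12g098900.2) was at 8.56 and 11.9 in shade and at 3.00 and 0.515 without it, and differed by 2.17 ± 0.37. Its unshaded libraries were themselves far apart in FPKM. A mitochondrial carrier (Solyc06g066680.3), of the family that moves metabolites across the inner membrane, differed by 2.12 ± 0.21. It had 8.89 and 8.51 in shade and 1.10 and 1.36 without it, with little spread in either group. Beta-D-xylosidase 4 (Solyc11g044910.2), an enzyme that releases xylose from cell wall polymers, differed by 2.0 ± 0.29. A RING/U-box protein (Solyc08g008080.1), of a family of ubiquitin ligases, differed by 1.96 ± 0.27 with 111 and 84.5 in shade against 19.8 and 29.5. The largest rises further included a gene with no description (Solyc07g006630.4) at 2.32 ± 0.28, a P-loop hydrolase (Solyc07g044970.1) at 2.27 ± 0.49 and a dCTP pyrophosphatase (Solyc06g069640.3) at 2.02 ± 0.42. The agglutinin-like gene (Solyc04g009050.4), outside the naming rule and chosen after its values were seen, read 34.2 and 28.2 against 7.60 and 9.67, a difference of 1.74 ± 0.16. Of the 12 largest rises, 2 remained called without shaded library 1, 6 without shaded library 2, 10 without unshaded library 1 and 9 without unshaded library 2.

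**Figure D2:**
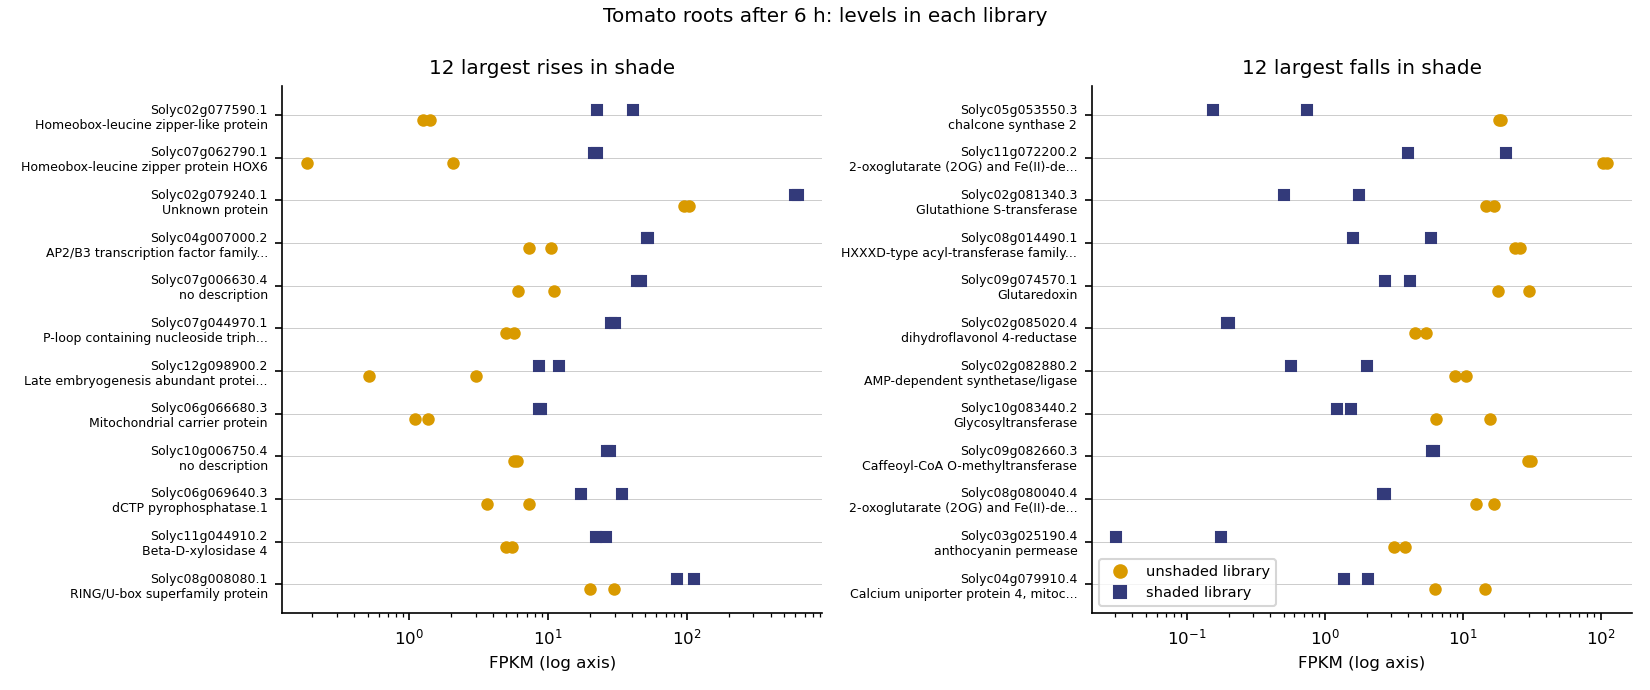
FPKM (log axis) of the 12 largest rises and the 12 largest falls at 6 h, with 1 square for each shaded and 1 circle for each unshaded library. The genes were chosen from called genes without overlap, so the gap between squares and circles is part of the choice; chalcone synthase 2 lies at 0.155 and 0.741 in shade against 18.8 and 18.2 without it.

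Genes of flavonoid synthesis were among those that fell most. Chalcone synthase is the first committed enzyme of the pathway, chalcone isomerase closes the ring of its product, and dihydroflavonol 4-reductase leads on to the anthocyanin pigments. Chalcone synthase 2 (Solyc05g053550.3) was at 0.155 and 0.741 in shaded and at 18.8 and 18.2 in unshaded roots. It fell from a steady unshaded level to near 0 in both shaded libraries, with a difference of -3.78 ± 0.36 (limma adjusted p = 0.00352). Chalcone synthase 1 (Solyc09g091510.3) was at 0 and 0.0968 in shade against 6.55 and 4.29 without it, a difference of -2.59 ± 0.32 (limma adjusted p = 0.00659). Dihydroflavonol 4-reductase (Solyc02g085020.4) was at 0.201 and 0.193 in shade against 4.53 and 5.42, a difference of -2.31 ± 0.34. A chalcone-flavonone isomerase family gene (Solyc05g010320.4), chosen after its values were seen, read 4.32 and 4.06 against 11.6 and 12.1 and differed by -1.31 ± 0.24. In all of these the shaded libraries lay below the unshaded ones, as they did in every called gene that fell.

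Of 30 measured flavonoid and phenylpropanoid genes, 0 were called higher and 4 lower, against 1.14% and 0.495% of all genes, and the median of the list was -0.09. Phenylalanine ammonia-lyase, the entry enzyme of phenylpropanoid synthesis, had similar levels in both groups in its most abundant gene (Solyc05g056170.3). It was at 223 and 228 in shade and 269 and 203 without it, and the unshaded libraries lay on either side of the shaded ones. A further chalcone synthase (Solyc05g053170.3) was at 0.467 and 4.32 in shade and 4.23 and 15.7 without it; the groups overlapped and the difference of -1.74 ± 0.70 was not called (limma adjusted p = 0.28). Of the 4 calls, 1 remained without shaded library 1, 2 without shaded library 2, 3 without unshaded library 1 and 2 without unshaded library 2.

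An anthocyanin permease (Solyc03g025190.4), named for transport of the pigment, was at 0.0306 and 0.176 in shade and 3.15 and 3.77 without it, a difference of -2.01 ± 0.30. A glutathione S-transferase (Solyc02g081340.3) belongs to a family in which some members help anthocyanins into the vacuole in maize and petunia. It read 0.502 and 1.76 in shade against 14.7 and 16.8, a difference of -3.04 ± 0.34 (limma adjusted p = 0.0056). Both genes were low in each shaded library. A member of the HXXXD-type acyltransferases (Solyc08g014490.1), which attach acyl groups to many plant metabolites, stood at 1.59 and 5.89 against 26.1 and 24.0 and differed by -2.62 ± 0.47. Another of the same family (Solyc12g088170.2) and a glycosyltransferase (Solyc12g098590.3) had 1 shaded library at 0, which kept them out of the naming rule. They are named after their values were seen, with differences of -3.29 ± 0.43 and -2.95 ± 0.42.

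The second largest fall was in a 2-oxoglutarate-dependent oxygenase (Solyc11g072200.2), an abundant transcript at 104 and 112 in unshaded roots. It was at 3.99 and 20.6 in the shaded libraries, which were themselves far apart, and the difference was -3.39 ± 0.59 (limma adjusted p = 0.0214). A glutaredoxin (Solyc09g074570.1), of a family of small thiol redox proteins, was at 2.71 and 4.15 against 18.1 and 30.0 and differed by -2.47 ± 0.40. Caffeoyl-CoA O-methyltransferase (Solyc09g082660.3), which acts in the synthesis of lignin precursors, was at 5.98 and 6.21 against 31.3 and 29.5 and differed by -2.14 ± 0.38. Its replicates were close in both groups. The largest falls further included an AMP-dependent synthetase (Solyc02g082880.2) at -2.29 ± 0.42, a glycosyltransferase (Solyc10g083440.2) at -2.22 ± 0.48, another 2-oxoglutarate-dependent oxygenase (Solyc08g080040.4) at -2.08 ± 0.29 and a mitochondrial calcium uniporter (Solyc04g079910.4) at -1.98 ± 0.33. Of the 12 largest falls, 1 remained called without shaded library 1, 4 without shaded library 2, 7 without unshaded library 1 and 4 without unshaded library 2. In 2 called genes, both unannotated, a whole group was listed at 0. Solyc02g069990.1 was at 23.8 and 22.8 in shade and at 0 in both unshaded libraries, and Solyc12g044360.2 was at 0 in both shaded libraries and at 6.02 and 3.10 without shade.

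Genes of light signalling and the circadian clock changed in both directions. Of 84 measured, 7 were called higher and 1 lower, against 1.14% and 0.495% of all genes, with a list median of 0.14. GIGANTEA, an evening clock protein in Arabidopsis, has 2 called genes here. Solyc12g056650.2 read 78.8 and 72.6 in shaded and 36.4 and 30.3 in unshaded roots, a difference of 1.16 ± 0.14 (limma adjusted p = 0.0064). The replicates of each light agreed closely and the groups were apart. Solyc04g071990.3, chosen after its values were seen, read 78.8 and 74.3 against 49.4 and 49.0 and differed by 0.63 ± 0.12. Late elongated hypocotyl (Solyc10g005080.3) is named after a morning repressor of the Arabidopsis clock. It moved the other way, at 16.1 and 14.5 in shade and 41.1 and 37.2 without it, a difference of -1.30 ± 0.19 (limma adjusted p = 0.012).

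Pseudo-response regulators repress that morning gene in Arabidopsis. One (Solyc04g049670.4) was at 119 and 109 in shade against 65.7 and 66.2, a difference of 0.78 ± 0.10. The gene described as APRR5 (Solyc10g005030.4) was at 11.3 and 9.996 against 4.91 and 3.47 and differed by 1.18 ± 0.23. Both lay above the unshaded range in each shaded library. A gene named FAR-RED-ELONGATED HYPOCOTYL 1-LIKE (Solyc10g086560.3), whose Arabidopsis namesake brings phytochrome A into the nucleus, read 92.2 and 87.3 against 52.9 and 52.2 and differed by 0.76 ± 0.14. The CONSTANS-like zinc finger genes Solyc12g005660.2 and Solyc07g053140.3 differed by 0.99 ± 0.18 and 0.90 ± 0.14. APRR5, the FAR-RED-ELONGATED HYPOCOTYL 1-LIKE gene and the CONSTANS-like genes were picked with their values known. Of the 8 calls, 0 remained without shaded library 1, 2 without shaded library 2, 4 without unshaded library 1 and 3 without unshaded library 2.

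Of 118 measured auxin genes, the largest of the hormone lists, 5 were called higher and 0 lower. This was 4.24% of the list against 1.64% of all genes, and the list median was 0.10. Aux/IAA proteins are repressors of auxin response that auxin itself induces. The gene described as IAA4 (Solyc06g053840.3) was at 217 and 190.0 in shaded and 91.0 and 88.5 in unshaded roots, a difference of 1.17 ± 0.14 (limma adjusted p = 0.0064). IAA17 (Solyc06g008590.3) was at 19.0 and 20.9 against 6.91 and 10.2, a difference of 1.15 ± 0.19. Both shaded values of each gene lay above both unshaded ones. IAA26 (Solyc03g121060.4) was at 54.0 and 59.0 against 24.9 and 33.7 and differed by 0.94 ± 0.18. The auxin-responsive SAUR20 (Solyc01g110920.4) and an auxin-repressed protein (Solyc03g006360.3), chosen after their values were seen, differed by 1.17 ± 0.24 and 1.28 ± 0.26. The called members thus held Aux/IAA repressors and genes named for opposite responses to auxin. Of the 5 calls, 0 remained without shaded library 1, 1 without shaded library 2, 2 without unshaded library 1 and 3 without unshaded library 2.

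Of 107 ethylene genes, 3 were called higher and 0 lower (2.80% against 1.64% of all genes), with a median of 0.10. They were response factors: RAP2.1 (Solyc04g078640.3) at 1.02 ± 0.22, factor 2 (Solyc08g007230.3) at 1.02 ± 0.21 and factor 3 (Solyc12g005960.3) at 0.59 ± 0.12. RAP2.1 was at 112 and 100.1 in shade against 60.2 and 44.5 without it. Both shaded libraries were higher than both unshaded ones. None of the 3 ethylene calls remained when any 1 of the 4 libraries was left out. The cytokinin response regulator ARR18 (Solyc01g108300.3) was the 1 call of 39 cytokinin genes (2.56%), at 0.63 ± 0.13. An ethylene-responsive proteinase inhibitor (Solyc08g080630.4) was the 1 call of 64 jasmonate and defence genes (1.56%), at 151 and 122 against 53.0 and 58.9, a difference of 1.27 ± 0.21. The ARR18 call remained only without unshaded library 1, and that of the inhibitor in none of the 4 fits. No gene was called by limma among 57 gibberellin, 95 abscisic acid, 5 brassinosteroid and 51 WRKY genes. Of these, 8, 13, 2 and 5 in that order had an unadjusted limma p-value under 0.05, as did 2972 of all genes tested.

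**Figure D3:**
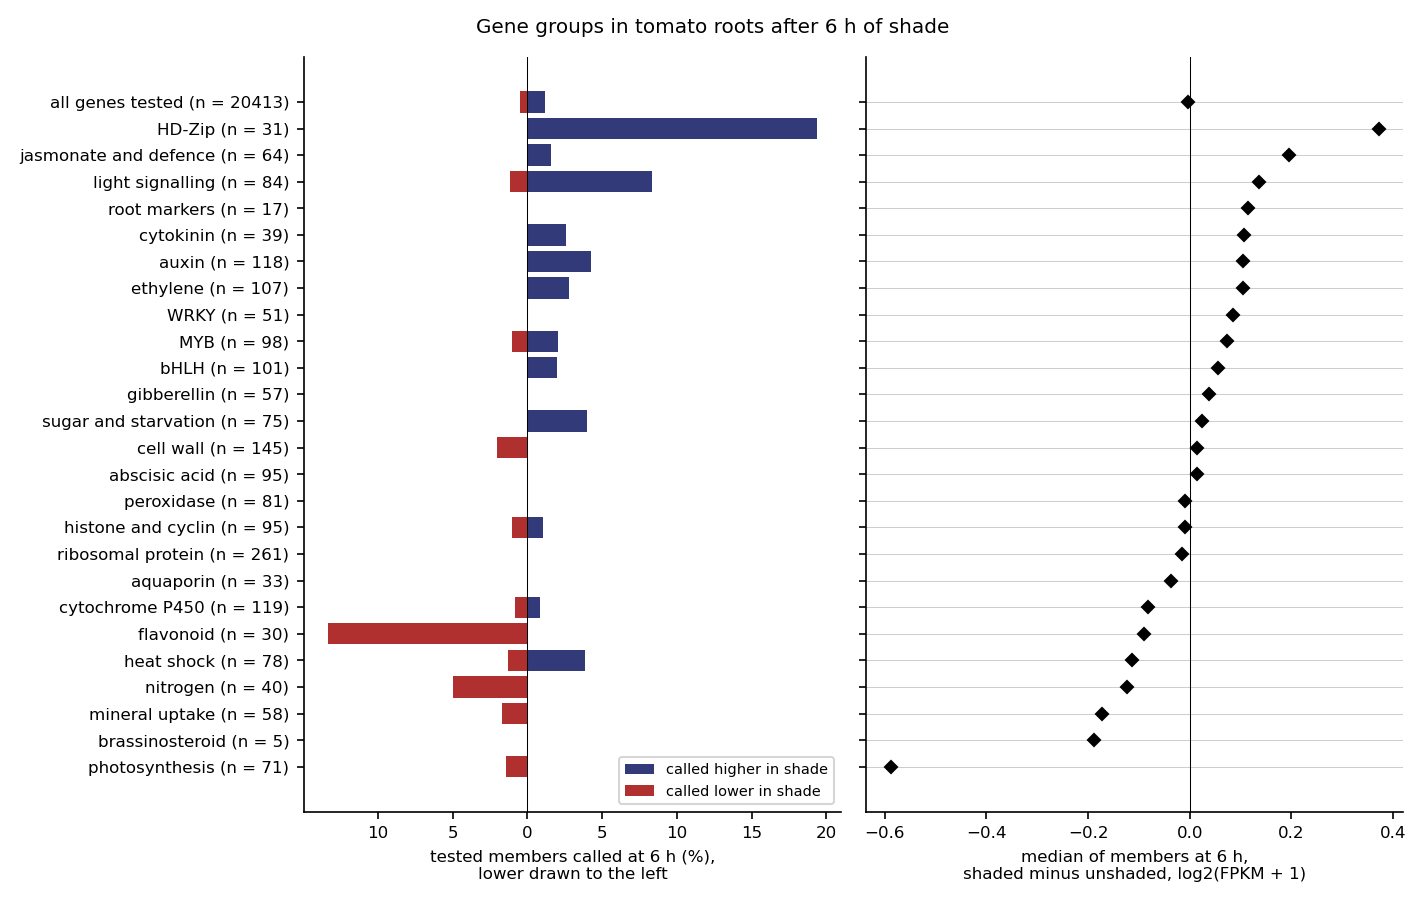
For each list of genes matched by function, leaving out the groups chosen after their values were seen, the left panel gives the percentage of tested members called higher (right of 0) or lower (left of 0) at 6 h, and the right panel gives the median shaded minus unshaded difference on the log2(FPKM + 1) scale. Among the lists drawn, HD-Zip genes have the highest median (0.37) and photosynthesis genes the lowest (-0.59), while all genes tested lie at -0.003.

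Of 71 measured photosynthesis genes, which mark green tissue, 0 were called higher and 1 lower, or 1.41% against 1.64% of all genes tested. The list median was -0.59, and 62 of the 71 estimates were negative, against 10320 of all 20413 genes tested. Members of a list are not independent replicates. The called gene encodes the photosystem II 22 kDa protein (Solyc06g060340.3), which lets excess light energy escape as heat. It was at 20.6 and 29.9 in shaded and 90.4 and 81.3 in unshaded roots, a difference of -1.75 ± 0.30 (limma adjusted p = 0.0202). The groups were well separated, but the call was lost whichever of the 4 libraries was left out. The summed FPKM of the list was 4091 and 5688 in shade against 5649.7 and 6756 without it, so the groups overlapped. Chlorophyll a-b binding genes varied within a light: Solyc02g070970.1 was at 0.851 and 6.01 in shade and 1.67 and 23.8 without it.

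Subunits of the photosynthetic NDH complex, which runs cyclic electron flow around photosystem I, formed a small group that was chosen after its values were seen. All 6 measured subunits had a negative difference, as did 10320 of all 20413 genes tested. The median of the 6 was -1.22, and 2 were called lower, against 0.495% of all genes. Of these 2 calls, 1 remained without unshaded library 2 and 0 when any of the other libraries was left out. The subcomplex L 2 subunit (Solyc05g007780.3) was at 1.24 and 2.003 against 9.33 and 5.44 and differed by -1.65 ± 0.31. The subcomplex B 3 subunit (Solyc08g083360.3) was at 4.26 and 5.91 against 18.6 and 15.9 and differed by -1.60 ± 0.33. Both were lower in each shaded library than in each unshaded one. In whole roots, fewer cells of a type and less RNA per cell cannot be told apart. The share of green tissue in the samples was not tested, and no root marker was called by limma (0 of 17, median 0.11), with 4 at an unadjusted p-value under 0.05. Estimates were positive in 10 markers and negative in 7, ranging from -0.86 in a root-specific metal transporter (Solyc11g018530.2) to 1.29 ± 0.32 in a Casparian strip membrane protein gene (Solyc04g005620.3; limma adjusted p = 0.079). The latter was at 177 and 169.7 in shade against 86.4 and 57.1. Without it, the summed FPKM of the root markers was 403 and 411.1 in shade against 411.7 and 311 without shade, and the groups overlapped.

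Of 75 sugar and starvation genes, 3 were called higher and 0 lower (4.0% against 1.64% of all genes), with a median of 0.02. Beta-amylase (Solyc08g077530.3), which breaks down starch, was at 87.1 and 72.5 in shade against 39.7 and 26.4, a difference of 1.27 ± 0.23. Trehalose-6-phosphate synthase 1 (Solyc07g006500.3) makes the sugar phosphate that reports sucrose status in plants. It was at 91.8 and 72.4 against 37.8 and 32.9, a difference of 1.19 ± 0.22. Shaded and unshaded libraries did not overlap for either. The sugar transporter ERD6 (Solyc01g080680.3) differed by 1.01 ± 0.17. Without a library, 0 of these 3 calls remained when either shaded library was left out and 1 when either unshaded library was.

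Nitrite reductase 2 (Solyc10g050890.2), which turns nitrite into ammonium with electrons from ferredoxin, was at 275 and 294 in shaded and 412 and 459 in unshaded roots. It differed by -0.61 ± 0.10 (limma adjusted p = 0.018). The replicates were close and the groups apart. Together with an amino acid transporter (Solyc08g082080.3) at -0.89 ± 0.17, it made 0 higher and 2 lower calls of 40 nitrogen genes (5.0% against 1.64% of all genes), with a list median of -0.12. Of these 2 calls, 1 remained without unshaded library 1 and 0 without any 1 of the other libraries. A phosphate transporter (Solyc01g094720.3) at -0.66 ± 0.13 was the 1 call of 58 mineral uptake genes (1.72%). It was lost whichever library was left out.

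A cell wall list of expansins, xyloglucan endotransglucosylases, extensins, pectinesterases, polygalacturonases and cellulose synthases had 145 measured members. Of these, 0 were called higher and 3 lower (2.07% against 1.64% of all genes), and the median was 0.01. Other wall enzymes were outside that list and went both ways. Besides beta-D-xylosidase 4, beta-galactosidases 3 (Solyc03g121540.3) and 4 (Solyc12g008840.2) were called higher, at 1.69 ± 0.35 and 1.40 ± 0.21. Beta-galactosidase 5 (Solyc11g069270.2), an endoglucanase (Solyc01g110340.4), a pectate lyase (Solyc09g005850.3) and a pectin lyase-like gene (Solyc04g008230.3) were called lower, at -0.85, -0.84, -0.49 and -1.86. These 6 were picked with their values known. A xyloglucan endotransglucosylase/hydrolase (Solyc09g008320.4), which cuts and rejoins the xyloglucan tethers of the wall, was at 41.2 and 48.5 in shade and 168 and 89.7 without it. Unshaded library 1 stood well above unshaded library 2, and both lay above the shaded ones, with a difference of -1.44 ± 0.28. A leucine-rich repeat extensin-like gene (Solyc09g075580.1) differed by -1.06 ± 0.22 and a pectinesterase (Solyc02g080200.4) by -0.74 ± 0.16. Of these 3 calls, 2 remained without unshaded library 2 and 0 without any 1 of the others. Over the 35 measured extensin genes, chosen after their values were seen, the median was 0.42, with 25 estimates positive and 10 negative. In 19 of the 35 the unshaded libraries lay on either side of the shaded ones. That count was not taken over all genes. The part of this difference between the unshaded libraries in the cell wall results was not tested.

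Of 98 MYB genes 2 were called higher and 1 lower (3.06%), of 101 bHLH genes 2 higher and 0 lower (1.98%), and of 119 cytochrome P450 genes 1 higher and 1 lower (1.68%). The share of all genes called was 1.64%. The largest of these was a cytochrome P450 (Solyc06g035760.4) at 52.3 and 74.1 in shade against 203 and 143, a difference of -1.44 ± 0.28. MYB transcription factors at 1.22 ± 0.20 (Solyc10g005460.3) and 0.49 ± 0.09 (Solyc06g071230.3) and an MYB1R1-like factor at -0.90 ± 0.15 (Solyc04g005100.3) made up the MYB calls. The bHLH calls were factor 076 (Solyc01g086870.3) at 0.79 ± 0.14 and factor 041 (Solyc06g008030.3) at 0.61 ± 0.11. Of 78 heat shock genes, 3 were higher and 1 lower (5.13%). Heat shock transcription factors, which activate chaperone genes, rose by 0.66 ± 0.13 (Solyc12g007070.2) and 0.62 ± 0.10 (Solyc03g026020.3), while a 70 kDa heat shock protein (Solyc11g066060.3) fell from 394 and 419 to 240.3 and 271. Its difference was -0.67 ± 0.13. In the MYB list 2 calls remained without unshaded library 1, 1 without unshaded library 2 and 0 without either shaded library. In the heat shock list 2 remained without unshaded library 1 and 0 otherwise, and the bHLH and cytochrome P450 calls were lost whichever library was left out.

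Ribosomal protein, histone and cyclin genes had medians near 0 at 6 h. Of 261 ribosomal protein genes 0 were called by limma, 9 had an unadjusted p-value under 0.05, and the median was -0.01, against -0.44 at 12 h and -0.67 at 24 h. Of 95 histone and cyclin genes (2.11% called, against 1.64% of all genes) 1 was higher, a histone H2B (Solyc06g074750.1) at 1.05 ± 0.20, and 1 was lower, a cyclin (Solyc09g065200.4) at -0.61 ± 0.12. Their median of -0.01 at 6 h compares with -0.69 at 12 h and -0.97 at 24 h. Both calls were lost whichever library was left out. No gene was called by limma among 81 peroxidases and 33 aquaporins, of which 13 and 5 had an unadjusted p-value under 0.05.

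The 6 h response was placed between the earlier and later time points. By the same test 38 genes (0.186%) were called at 3 h, 4876 (23.9%) at 12 h and 7611 (37.3%) at 24 h. Relative depth was 0.669 to 1.14 at 3 h, 0.760 to 0.822 at 6 h and 1.01 to 1.48 at 12 and 24 h. The unshaded pair at 6 h had the lowest r between replicates of the 8 groups (0.957). The part of depth and replicate spread in these counts was not tested. Of the 334 genes of 6 h, 24 were also called in the same direction at 3 h, which is 7.19% of the 6 h genes and 63.2% of the 3 h genes. At 12 h 296 were called in the same direction (88.6% of the 6 h genes and 6.07% of the 12 h genes), and at 24 h 276 (82.6% and 3.63%). In the opposite direction 0 were called at 3 h, 1 at 12 h and 8 at 24 h. Called at all 4 times in 1 direction were 18 genes, 15 of them higher, and 246 were called at 6, 12 and 24 h but not at 3 h.

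Genes called higher at 6 h had median differences of 0.39, 1.01, 1.23 and 1.01 in the order 3, 6, 12 and 24 h. Those called lower had -0.50, -1.03, -1.09 and -0.87. The 6 h values are those that chose the genes and are given as a description. Taken from the other end, the 2160 genes called higher at 12 h had a median of 0.70 there and of 0.32 at 6 h, where 93.5% were positive. The 2716 called lower at 12 h had -0.74 there and -0.19 at 6 h, where 86.8% were negative.

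**Figure D4:**
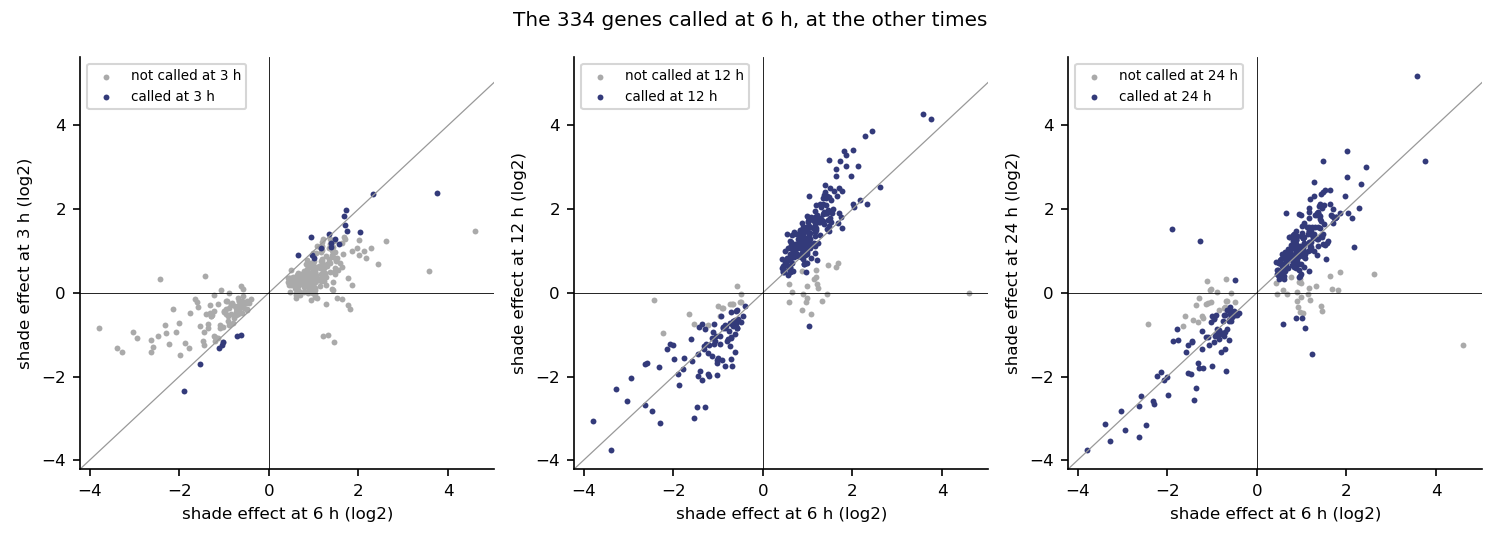
Each point is 1 of the 334 genes called at 6 h, with its shaded minus unshaded difference at 6 h (log2(FPKM + 1) scale) against the same at 3, 12 or 24 h; dark points were also called at that time and the diagonal marks equal differences. Few points are dark at 3 h (24), most are at 12 h and 24 h, and at 24 h 8 called genes lie in the opposite quadrants.

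Estimates for individual genes over the times are given as a description. For the genes followed here, limma called no difference in the shade effect between 6 h and 3 h or between 12 h and 6 h. The homeobox-leucine zipper-like gene Solyc02g077590.1 was called at every time, at 2.37 at 3 h, 4.15 at 12 h and 3.15 at 24 h beside its 3.75 at 6 h. HOX6 (Solyc07g062790.1) was at 0.53 at 3 h and not called (limma adjusted p = 0.731), and at 4.28 and 5.18 at 12 and 24 h. HAT2 (Solyc06g060830.3) ran the other way, at 1.84 at 3 h, 0.71 at 12 h and 0.09 at 24 h, where shaded and unshaded libraries overlapped. Chalcone synthase 2 (Solyc05g053550.3) was at -0.84 at 3 h, without a call (limma adjusted p = 0.476), and at -3.06 and -3.74 later. Its shaded libraries held 6.07 and 11.6 at 3 h, and less than 1 at each later time.

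GIGANTEA (Solyc12g056650.2) was called at all times, at 1.06 at 3 h, 1.95 at 12 h and 1.93 at 24 h. Late elongated hypocotyl (Solyc10g005080.3) was at -0.55 at 3 h, -2.73 at 12 h and -1.79 at 24 h, with calls from 6 h on. Nitrite reductase 2 (Solyc10g050890.2) was called lower throughout, at -1.02 at 3 h, -1.42 at 12 h and -0.67 at 24 h, so its 6 h difference was the smallest of the 4 estimates. IAA4 (Solyc06g053840.3) was at 0.77 at 3 h, 0.94 at 12 h and 0.53 at 24 h, called at 6, 12 and 24 h. The CONSTANS-like gene Solyc07g053140.3 and ethylene response factor 3 (Solyc12g005960.3) were among 19 genes called at 6 h alone, 12 of them higher. The difference between 12 h and 6 h was called for 0 of the 19, so these genes were not shown to differ between these times.

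**Figure D5:**
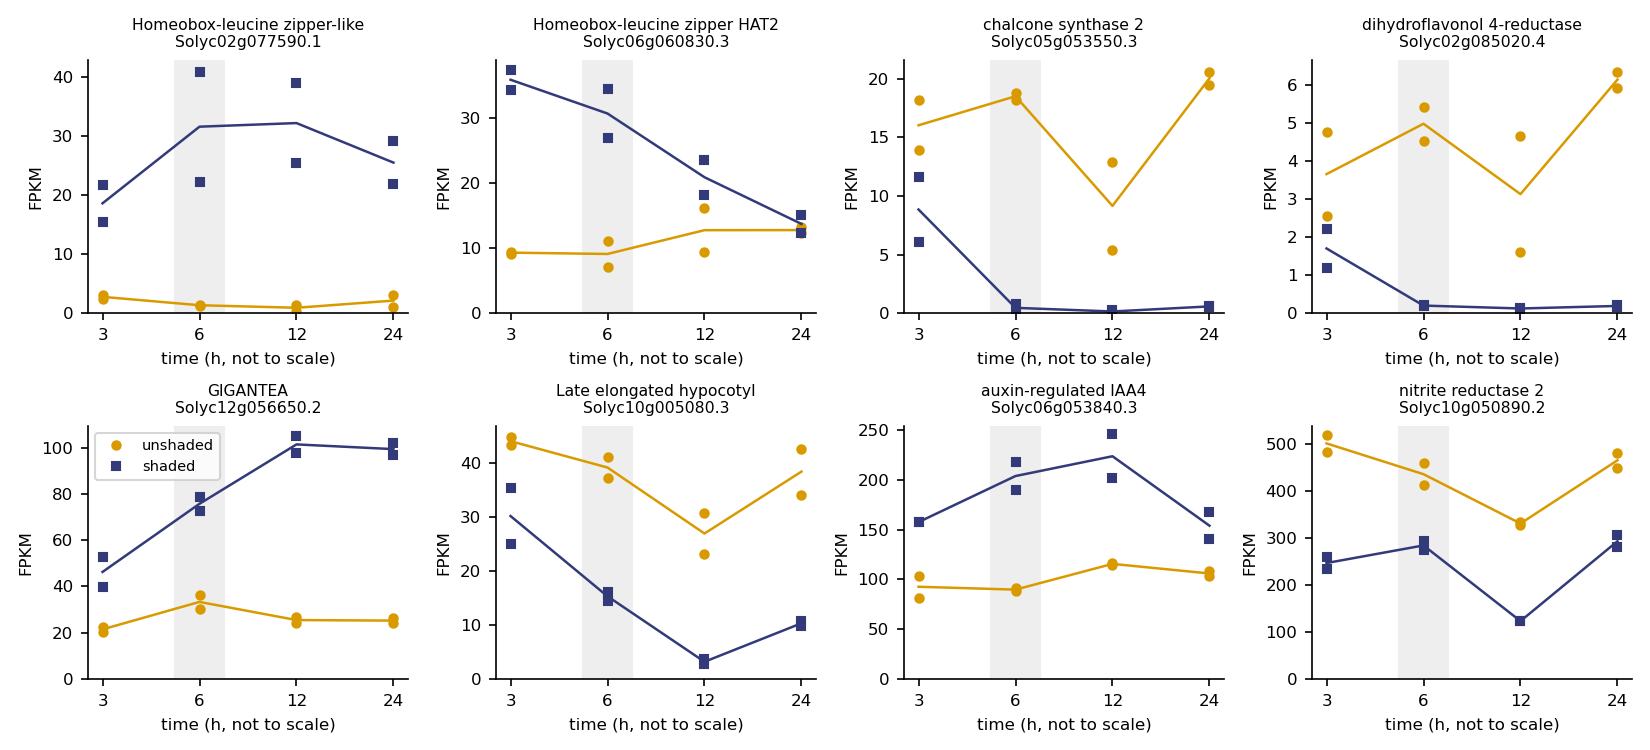
FPKM by time in shaded (squares) and unshaded (circles) roots for 8 genes, with 1 point per library, lines through the group means and the 6 h comparison shaded grey; times are not to scale. Chalcone synthase 2 and dihydroflavonol 4-reductase are near 0 in shade from 6 h on, HAT2 in shade declines to the unshaded level by 24 h, and late elongated hypocotyl is lowest in shade at 12 h.

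Whether the effect of shade itself differed between times was tested directly. Between 6 h and 3 h, limma called 0 genes (0.0%), with 1323 at an unadjusted p-value under 0.05. Between 12 h and 6 h it called 2 genes (0.0098%), with 2555 unadjusted. Both called genes were at or near 0 in every library at 6 h and passed the filter only through other times. Neither count shows that the responses were alike. Between 24 h and 6 h it called 75 genes (0.367%), of which 39 had a higher difference at 24 h and 36 a lower one, and 13 of the 75 were among the 334 genes called at 6 h. This count rested on the libraries: it was 5 without shaded library 1, 5 without shaded library 2, 38 without unshaded library 1 and 1040 without unshaded library 2. Among the 13, the sugar transporter ERD6 (Solyc01g080680.3) was higher in shade at 6 h, at 41.5 and 39.6 against 17.1 and 22.6, and lower at 24 h. Its difference was 1.01 at 6 h, 1.44 at 12 h and -0.60 at 24 h, and the change from 6 to 24 h was -1.61 (limma adjusted p = 0.0332).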

How the data were processed

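The authors deposited 1 table of FPKM values for tomato, with 34075 genes in 16 libraries, and these were used as deposited. Cufflinks 2.1.1 is listed per the submitters' processing notes. The tomato genome build, aligner and annotation are not given in the sources used here. RNA was extracted with a Promega ReliaPrep kit, per the labels' protocols. Values were analysed as log2(FPKM + 1) for genes averaging at least 1 FPKM. A limma model (version 3.58.1, R 4.3.3) held 1 mean for each of 8 groups of 2 and an intensity trend. Tests were two-sided, with Benjamini-Hochberg adjustment over 20413 genes. The model was run on simulated data with normal noise of its own estimated spread, equal in all groups and without an outlying library. That run cannot show how the model handles the uneven replicates seen here. With 2 samples against 2, an exact permutation test cannot give a p-value under 0.333. Relative depth came from the steps of low FPKM values. The depth of single genes is unknown, so no counting intervals are given.

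Members and gene lists were chosen with earlier results of these data known, and list patterns were completed after the wording of the descriptions was seen. Lists were matched in the descriptions and carry no test. Named genes are the 12 largest rises and 12 largest falls among called genes without overlap and above 0 in all 4 libraries, up to 3 called members of each list by adjusted p-value, and the 3 largest of each direction in each difference between times. At most 3 genes with a group at 0 are given as levels. The alternatives were another pseudocount, no filter, other scalings, a replicate block, a fit to the compared groups alone and leaving out each library. The check of same-numbered samples gave low correlations across genes and cannot decide whether they were paired. Paralogs whose reads the authors' counting could split are uncertain. Plots were drawn with matplotlib 3.10.9.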

Additional observations from a re-analysis of the deposited data

Results flagged for a closer look

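The effect of shade differed between 6 h and a later time, by limma's test of the difference itself with Benjamini-Hochberg adjustment, in the following named genes. An F-box gene (Solyc10g052650.3) was close to 0 in all libraries at 6 h, and its shade effect was 4.91 ± 0.21 higher at 12 h (limma adjusted p = 3.33e-06) and 5.00 ± 0.21 higher at 24 h (limma adjusted p = 2.74e-06). Solyc02g070850.1, which has no description, was listed at 0 in all 4 libraries at 6 h and at 12.2 and 9.24 FPKM in shade at 12 h, a difference of 3.54 ± 0.27 (limma adjusted p = 0.000698). Both genes were at or near 0 at 6 h, so they passed the filter only through libraries of other times. Groups near 0 add little to the spread estimated over all groups. The standard errors and p-values of both genes are therefore given as a description. Genes described as defensin-like protein 19, small antimicrobial proteins, had a higher shade effect at 24 h than at 6 h, by 4.13 ± 0.73 for Solyc07g009050.3 (limma adjusted p = 0.0487) and by 3.47 ± 0.50 for Solyc07g009100.3 (limma adjusted p = 0.0326). Neither was called at 6 h.

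In the other direction, a transmembrane protein (Solyc12g062840.1) changed by -3.05 ± 0.50 from 6 h to 24 h and a fruit-specific protein (Solyc05g008150.3) by -2.76 ± 0.47, both with a limma adjusted p of 0.0486. UDP-glucuronic acid decarboxylase (Solyc01g066700.4), which makes the UDP-xylose used for wall polysaccharides, was called higher in shade at 6 h, at 2.59 and 3.07 against 0.767 and 0.494 FPKM, and lower at 24 h. Its change was -2.69 ± 0.35 (limma adjusted p = 0.0315). Groups of 2 libraries allow no search for single outlying samples.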

How the results depend on the processing

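The main counts were 334 genes called at 6 h (233 higher, 101 lower), and 0, 2 and 75 genes for the shade effect of 6 h against 3 h, 12 h against 6 h and 24 h against 6 h. Leaving out each of the 4 libraries gave 7 to 270 calls at 6 h, 5 to 224 higher and 2 to 72 lower, and 0 to 6, 2 to 3 and 5 to 1040 genes for those differences. These fits have fewer samples and assume that the lone library of a group varies like the other groups. Fitted to only the groups compared, with fewer residual degrees of freedom, limma called 0 genes at 6 h, 0 higher and 0 lower (2609 at an unadjusted p-value under 0.05), 5 for 12 h against 6 h and 1 for 24 h against 6 h. A pseudocount of 0.1 gave 3 genes for 6 h against 3 h and 1 for 12 h against 6 h, and no filter gave 4 and 11. Median-of-ratios scaling gave 187 and equal FPKM sums 162 genes for 24 h against 6 h. The cause of these shifts was not tested.

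Across genes, the difference between shaded replicates correlated with that between unshaded replicates at 0.056 at 6 h. Over the 4 times this correlation was -0.004 to 0.094. With 2 samples per group it cannot show whether samples of the same replicate number were paired. With the number as a replicate block within each time point, 81 genes were called at 6 h (60 higher, 21 lower), 1 for 12 h against 6 h and 1 for 24 h against 6 h. With a block over all tomato samples, 272 were called at 6 h and 36 for 24 h against 6 h. The 334 genes kept their direction in every fit listed here. Only median-of-ratios scaling and equal FPKM sums could have changed it. In the other fits it was fixed, because the libraries of these genes did not overlap or the estimates stayed the same. Of 68 named genes, 62 were called at 6 h. The others were called at 6 h in no fit, and they count here as keeping their side of the threshold. Over the settings that left out no library, 351 of 476 results for named genes kept their side of the threshold and 125 lost the call. Over those that left out a library, 96 of 272 did and 176 lost it. List medians moved by more than the spread between replicates in 19 of 175 and 43 of 100 cases. Absolute depth is unknown, so it could not be said which low genes were limited by it.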

Other observations

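In sulfate assimilation, ATP sulfurylase activates sulfate and the reductases turn it into sulfide for cysteine. The group was chosen after its values were seen and carries no test. Of 11 measured genes, 0 were called higher and 4 lower, against 1.14% and 0.495% of all genes, and the median was -0.69 against -0.003 over all genes tested. Estimates were negative in 7 of the 11 genes and positive in 4. Adenylyl-sulfate reductase (Solyc02g080640.4) was at 166 and 201 FPKM in shade and 412 and 337 without it, a difference of -1.03 ± 0.17. ATP sulfurylase (Solyc03g005260.3) was at 17.7 and 21.9 against 37.8 and 43.5, a difference of -1.0 ± 0.17, and sulfite reductase (Solyc11g065620.2) was at 71.5 and 80.4 against 126 and 133, a difference of -0.76 ± 0.12. In each gene both shaded libraries were below both unshaded ones. Uroporphyrinogen-III C-methyltransferase (Solyc01g086650.3) makes the precursor of siroheme, the cofactor of sulfite and nitrite reductases, and differed by -0.72 ± 0.09 (limma adjusted p = 0.00659). A ferredoxin (Solyc11g006910.3) was at 281 and 315 against 532 and 685 and differed by -1.02 ± 0.18. The methyltransferase and the ferredoxin lie outside the group and were picked with their values known. Of the 4 sulfate calls, 2 remained without unshaded library 1, 2 without unshaded library 2 and 0 without either shaded library.

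A group matched by description to the breakdown of leucine and valine in mitochondria was also chosen after its values were seen. Of its 24 measured genes, 4 were called higher and 0 lower, against 1.14% and 0.495% of all genes, with a median of 0.16. The match took in every description with branched-chain or electron transfer flavoprotein, so members need not all act in that breakdown. Methylcrotonoyl-CoA carboxylase (Solyc01g108030.4) was at 164 and 132 in shade against 58.7 and 56.5, a difference of 1.33 ± 0.23. Isovaleryl-CoA dehydrogenase (Solyc11g069180.2) differed by 1.01 ± 0.17, methylmalonate-semialdehyde dehydrogenase (Solyc01g106080.4) by 0.89 ± 0.11, and the electron transfer flavoprotein beta subunit (Solyc09g089880.3), which takes up electrons from such dehydrogenases, by 0.89 ± 0.15. A second isovaleryl-CoA dehydrogenase (Solyc06g073560.4) differed by -0.02 and was not called (limma adjusted p = 0.975). Of these 4 calls, 0 remained without shaded library 1, 1 without shaded library 2, 1 without unshaded library 1 and 2 without unshaded library 2.

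Some genes that were low in shade at 6 h were high by 24 h. A potassium channel (Solyc12g006850.2) was at 6.76 and 7.65 FPKM in shade against 22.3 and 15.7 at 6 h, a difference of -1.27, and at 1.24 at 24 h. The gene described as NIT2 (Solyc08g007430.2) was at 9.10 and 20.2 against 51.7 and 55.7, a difference of -1.90, and at 1.52 at 24 h. LITTLE ZIPPER 3 (Solyc09g009620.1), named after an Arabidopsis inhibitor of a class of HD-Zip proteins, ran the other way, at 1.08 at 6 h and -0.83 at 24 h. The change from 6 to 24 h was called for each (limma adjusted p = 0.0315, 0.034 and 0.0486), and all 3 were picked with their values known.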
